A study of Mus musculus with 10 samples.

Results

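The genes described here encode the proteasome, the cytosolic chaperonin CCT and the heat shock protein families HSP70, HSP90, DNAJA and DNAJB in mouse embryonic stem cells (mESCs). They were taken by symbol: proteasome genes (Psma, Psmb, Psmc, Psmd, Psme, Psmf or Psmg followed by a digit), the CCT subunits including Tcp1, and every symbol that begins with Hspa, Hsp90, Dnaja or Dnajb. In all, 90 listed genes carried such a symbol, and 82 of these reached 1 TPM (a length-corrected share of the library's transcripts) in at least 2 libraries, among 12060 genes that passed the same filter and 21853 listed. The 8 genes that did not pass were Psmb8, Psmb9, Psmb11, Hspa1a, Hspa1l, Dnajb3, Dnajb7 and Dnajb8. Of the 8 CCT genes, 7 were present and Cct6a was not analysed here. Psmc3ip met the symbol rule but encodes a recombination factor rather than a proteasome subunit, so it is kept apart from the subunit counts.

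The 26S proteasome degrades proteins that carry ubiquitin chains. Its 20S core is a barrel of outer alpha and inner beta rings with the proteolytic sites facing inward, and the 19S particle on either end binds the ubiquitylated protein, removes the chain and threads the substrate in with a ring of ATPases. CCT is a double-ring chaperonin that folds actin, tubulin and other cytosolic proteins. HSP70 and HSP90 bind unfolded or nearly folded clients in ATP cycles, and DNAJ proteins set the cycle of HSP70 in motion. Pluripotent cells are known for high proteasome activity and high chaperone expression.

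Bulk RNA was sequenced from 10 libraries, 2 from each of 5 lines on the J1 background. The naïve line was wild-type J1 in serum with LIF (1000 U/ml) and 2i, that is PD0325901 (1 µM), a MEK inhibitor, and CHIR99021 (3 µM), a GSK3 inhibitor, on gelatin. AKO cells were labelled AMPK knockout, GKO cells GYS1 knockout (glycogen synthase, the enzyme that builds glycogen) and DKO cells knockout of both, with the labels giving the naïve growth conditions. Primed cells (PJ1) were wild-type J1 kept on Matrigel with bFgf (10 ng/ml) and Activin (20 ng/ml) in serum replacement. Per the methods, the AMPK knockout targeted Prkaa1, the catalytic alpha 1 subunit, and used pooled RFP-sorted clones, while the GYS1 knockout came from picked single clones with an indel in an exon. Which clones gave the 2 libraries of a line was not stated in the sources used here, so p-values measure the spread between these libraries, which may be technical.

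Several facts about the libraries touch every comparison below. Prkaa1 stood at 15.5 and 16.6 TPM in naïve, 7.24 and 6.94 in AKO, 2.30 and 2.04 in DKO, 12.2 and 12.0 in GKO and 13.4 and 13.7 in primed cells, so AKO and DKO were lowest as labelled. Prkaa2, the alpha 2 gene, was not the target and read 2.4 in both naïve libraries, 2.7 and 2.4 in AKO and 3.3 and 3.1 in DKO. AMPK knockout thus names the targeting of Prkaa1 here, not a shown absence of all AMPK. Gys1 read 11.5 and 10.8 TPM in naïve, 12.7 and 12.2 in AKO, 9.70 and 9.98 in GKO, 12.1 and 11.7 in DKO and 13.6 and 14.3 in primed cells, and its level checks little, since an indel need not lower the mRNA. The pluripotency markers Pou5f1, Sox2 and Nanog were present in every library, the 4 leukocyte markers summed to 1.302 to 10.2 TPM, highest in DKO and mostly Cd68 there while Ptprc and Csf1r were at or near 0, and the 6 fibroblast markers summed to 3.15 to 3.77 TPM in naïve, AKO and DKO, 9.54 and 10.7 in GKO, mostly Thy1 (7.14 and 8.48), and 9.57 and 15.8 in primed cells. GKO and DKO stood apart from the other lines: the Y-linked Eif2s3y was listed at 0 in both libraries of naïve, AKO and primed, at 41.5 and 38.0 TPM in GKO and at 37.3 and 37.4 in DKO. Ddx3y, also Y-linked, was at 0 in the same lines but differed between the knockouts, at 8.1 and 7.8 in GKO and 22.9 and 20.9 in DKO. The part of these differences in the results was not tested, and the genotype and any other difference between these lines cannot be told apart. Whole stretches of chromosomes also differed between lines, with a median log2 change of 0.47 over chromosome 14 in GKO, 0.36 in DKO and 0.54 in primed cells, so the change of chromosomal neighbours is given beside many of the genes below. Depth in reads is not known from TPM. The median gap between the 2 libraries of a line was 0.06 to 0.07 on the log2 scale, except 0.13 in primed cells.

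GKO and DKO cells each had lower mRNA than naïve cells for 16 of 31 constitutive proteasome subunits and primed cells for 19, while AKO cells had none past the threshold. Of the 82 genes, 18 were higher and 32 lower in GKO than in naïve cells (limma on log2(TPM + 1), Benjamini-Hochberg adjusted over all 12060 genes, threshold 0.05), where 24.7% of all genes tested were higher and 27.1% lower. In DKO, 18 were higher and 27 lower against a background of 21.7% and 24.3%. In primed cells, 23 were higher and 42 lower against 37.4% and 42.5%. In AKO, limma called 0 higher and 0 lower (7 had an unadjusted p under 0.05), and the background was 0.0663% and 0.158%. Comparisons with naïve cells share the same 2 naïve libraries, and in bulk RNA fewer cells of one kind and less RNA per cell cannot be told apart. Under quantile normalization the split moved to 21 higher and 21 lower in GKO and to 35 higher and 26 lower in primed cells.

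**Figure D1:**
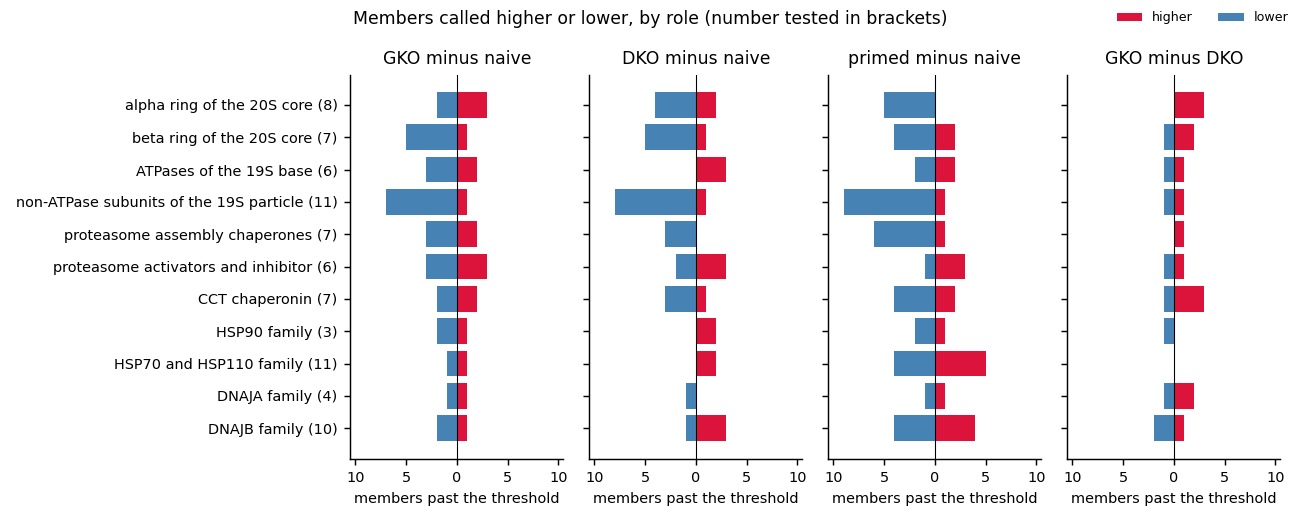
Number of genes called higher (right, red) or lower (left, blue) in each role list, for GKO, DKO and primed against naïve and for GKO against DKO; the number tested stands in brackets. In GKO 7 of the 11 non-ATPase subunits of the 19S particle were lower and 1 higher, and in primed cells 9 were lower and 1 higher. Of all genes tested 27.1% were lower and 24.7% higher in GKO, and 42.5% and 37.4% in primed cells.

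The 31 constitutive subunits (7 alpha, 7 beta, 6 ATPases and 11 non-ATPases) carried much of this difference. In GKO 7 were higher and 16 lower, with a median log2 change of -0.14 against -0.01 over all genes tested. In DKO the counts were 7 and 16 and the median -0.18, in primed cells 5 and 19 with a median of -0.27 against -0.05 over all genes, and in AKO the median was 0.00. Their summed level was 5424 and 5403 TPM in the naïve libraries, 5541 and 5453 in AKO, 4951 and 5003 in GKO, 4866 and 5017 in DKO and 4859 and 4626 in primed cells. The summed levels of GKO, DKO and primed libraries therefore all lay below those of naïve and AKO. As a share of all listed TPM the sums were 0.938% and 0.956% in naïve and 0.956% and 0.942% in GKO, which overlap, while DKO stood at 0.916% and 0.897%, below both. The primed shares of 0.949% and 0.925% overlapped the naïve range, and AKO stood at 0.957% and 0.946%. Under quantile normalization the median of the 31 subunits was -0.05 in GKO, -0.11 in DKO and -0.03 in primed cells.

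**Figure D2:**
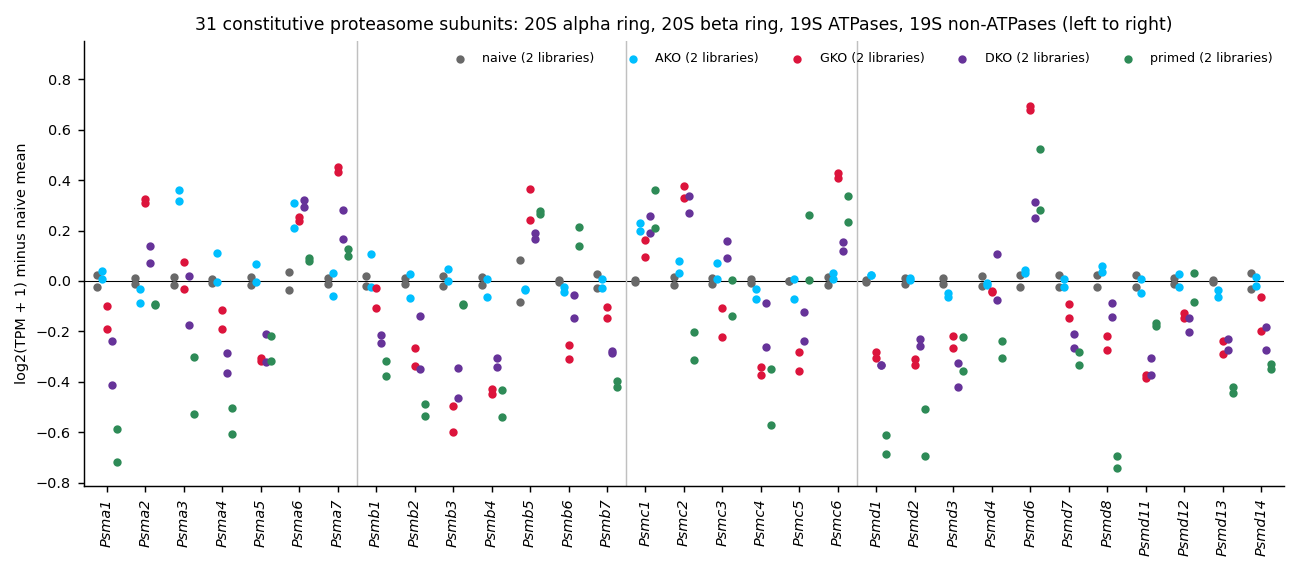
log2(TPM + 1) of each of the 31 constitutive proteasome subunits in each library (points, coloured by line) minus the mean of the 2 naïve libraries; vertical lines separate the alpha ring, the beta ring, the 19S ATPases and the 19S non-ATPases. Most GKO, DKO and primed points lie below 0, while Psmd6, Psmc6, Psmb5 and Psma7 lie above it in GKO.

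In the alpha ring, which gates entry to the core, the genes moved in both directions. Psma1 (-0.32), Psma4 (-0.33) and Psma5 (-0.27) fell in DKO. In GKO Psma5 fell by 0.31 and Psma2 rose by 0.32. Psma7 was the largest rise in GKO, from 207 and 210 TPM in naïve to 282 and 286 (log2 change 0.44 ± 0.05 SE, limma adjusted p = 0.000157), and stood at 234 and 254 in DKO (0.22 ± 0.05, limma adjusted p = 0.00703, lost without the first naïve library). Neither knockout overlapped the naïve libraries. The 50 tested genes nearest Psma7 on chromosome 2 had a median log2 change of 0.36 in GKO and 0.46 in DKO. Psma6 rose by 0.31 in DKO and by 0.25 in GKO and read 0.26 in AKO, where it was not called (limma adjusted p = 0.0973); its neighbours on chromosome 12 had medians of 0.21 in DKO, 0.21 in GKO and 0.16 in AKO. Psma3 was 119 and 116 TPM in naïve, 151 and 146 in AKO, 124 and 115 in GKO, 119 and 104 in DKO and 81.0 and 95.1 in primed cells, so both AKO libraries lay above the naïve ones and both primed libraries below, while GKO overlapped them. The primed fall of Psma3 was -0.41 ± 0.08 (limma adjusted p = 0.00152). Psma1 (-0.65) and Psma4 (-0.56) fell further in primed cells, and Psma5 less (-0.27).

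Psma8 encodes the alpha subunit that replaces Psma7 in the proteasome of male germ cells. It was expressed in naïve mESCs at 26.9 and 28.4 TPM and in AKO at 24.8 and 26.0, was at 10.1 and 11.5 in GKO and 11.5 and 11.1 in DKO, and was listed at 0 in both primed libraries. The libraries of GKO and DKO were thus alike and both well under those of naïve and AKO. It had the largest fall of all 82 genes in both lines: -1.29 ± 0.07 in GKO (limma adjusted p = 4.46e-06) and -1.22 ± 0.07 in DKO (limma adjusted p = 7.09e-06). Its 50 nearest tested genes on chromosome 18 had a median of -0.03 in GKO and -0.07 in DKO, so the fall was not shared by its neighbours. The primed level was past the threshold as well, with no fold given against a gene listed at 0.

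The beta ring holds the proteolytic sites, and 5 of its 7 genes were lower and 1 higher in both GKO and DKO. Over all genes tested 27.1% were lower and 24.7% higher in GKO, and 24.3% and 21.7% in DKO. The 3 catalytic subunits did not move together. Psmb5, with the chymotrypsin-like site, read 159 and 141 TPM in naïve, 147 and 146 in AKO, 177 and 193 in GKO, 168 and 171 in DKO and 180 and 182 in primed cells, so GKO, DKO and primed libraries all lay above both naïve ones. Its log2 change was 0.30 ± 0.06 in GKO (limma adjusted p = 0.00333), 0.18 in DKO (limma adjusted p = 0.0417, lost without either AKO or either DKO library and, at a value of 0.09, without the second naïve library) and 0.27 in primed cells. Psmb5 lies on chromosome 14 (chr14:54850776-54855481, GRCm39), where its 50 nearest tested genes had a median of 0.42 in GKO, 0.40 in DKO and 0.42 in primed cells. With each chromosome centred on its own median the change of Psmb5 turned negative, to -0.18, -0.20 and -0.26. Psmb6, with the caspase-like site, was 422 and 420 TPM in naïve and 340 and 354 in GKO (-0.28 ± 0.05, limma adjusted p = 0.00155), and at 489 and 464 in primed cells it was higher than in naïve (0.18 ± 0.05, limma adjusted p = 0.00919; -0.14 when centred on its chromosome). Psmb7, with the trypsin-like site, was 193 and 186 in naïve, 171 and 176 in GKO, 155 and 156 in DKO and 141 and 144 in primed cells, all below naïve, with changes of -0.13 (lost without either naïve or either GKO library), -0.28 and -0.41.

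Among the structural beta subunits Psmb3 had the largest fall in GKO and DKO. It went from 475 and 463 TPM in naïve to 310 and 333 in GKO (-0.55 ± 0.06, limma adjusted p = 7.78e-05) and 340 and 369 in DKO (-0.41 ± 0.06, limma adjusted p = 0.000486), with AKO at 469 and 485. Its neighbours on chromosome 11 had medians of -0.04 and -0.05. In primed cells Psmb3 read 439 and 440, which was not called (-0.09, limma adjusted p = 0.151). Psmb2 was lower in GKO (-0.30), DKO (-0.24, lost without either naïve library and, at -0.14, without the second DKO library) and primed cells (-0.51), the last the largest fall of the ring there.

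The 6 ATPases of the 19S base unfold the substrate. Their counts were 2 higher and 3 lower in GKO, 3 and 0 in DKO and 2 and 2 in primed cells, so no ATPase was lower in DKO. The shares over all genes tested were 24.7% and 27.1%, 21.7% and 24.3%, and 37.4% and 42.5%. Psmc2 was 128 and 130 TPM in naïve, 162 and 168 in GKO, 155 and 163 in DKO and 112 and 104 in primed cells, which put both knockouts above and primed cells below naïve. The changes were 0.35 ± 0.05 in GKO (limma adjusted p = 0.000438), 0.30 in DKO and -0.26 in primed cells (-0.004 under quantile normalization and -0.05 when centred, neither called), and its 50 neighbours on chromosome 5 had medians of 0.41 and 0.30 in GKO and DKO. Psmc6, on chromosome 14, rose by 0.42 in GKO, 0.14 in DKO and 0.29 in primed cells, while its neighbours rose by 0.50, 0.44 and 0.30; centred on its chromosome the values were -0.06, -0.24 and -0.24. The DKO call of Psmc6 (limma adjusted p = 0.0351) was lost without any 1 of the naïve, AKO, DKO or GKO libraries. Psmc4 fell in GKO from 180 and 178 TPM to 141 and 138 (-0.36 ± 0.08, limma adjusted p = 0.00445).

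The non-ATPase subunits of the 19S particle include the ubiquitin receptors, the scaffold and the deubiquitylase. Of the 11, 7 were lower in GKO, 8 in DKO and 9 in primed cells (27.1%, 24.3% and 42.5% of all genes tested), and 1 was higher in each (24.7%, 21.7% and 37.4%). That gene was Psmd6, at 87.6 and 84.7 TPM in naïve, 88.7 and 88.1 in AKO, 140 and 138 in GKO, 103 and 107 in DKO and 124 and 105 in primed cells. GKO was the highest line and overlapped no other. The rises were 0.69 ± 0.07 in GKO (limma adjusted p = 7.76e-05), 0.28 ± 0.07 in DKO (limma adjusted p = 0.0101, lost without the second naïve or the second DKO library) and 0.40 in primed cells. Psmd6 lies near the start of chromosome 14 (chr14:8348762-8357589, GRCm39), and its 36 nearest tested genes had medians of 0.49, 0.32 and 0.39; centred on the chromosome it read -0.10 in DKO and -0.12 in primed cells.

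Psmd11, a subunit known for raising proteasome assembly in human embryonic stem cells, was 131 and 135 TPM in naïve, 134 and 129 in AKO, 102 and 103 in GKO, 108 and 103 in DKO and 119 and 117 in primed cells. All libraries of the last 3 lines lay below naïve and AKO. The changes were -0.38 ± 0.04 in GKO (limma adjusted p = 0.00013), -0.34 ± 0.04 in DKO (limma adjusted p = 0.000307) and -0.17 in primed cells, where quantile normalization turned the value to 0.09. Psmd14, the deubiquitylase, fell by 0.23 in DKO (limma adjusted p = 0.00937, lost without the second naïve or the second DKO library) and by 0.34 in primed cells, and read -0.13 in GKO without being called. Psmd8, a lid subunit, had the largest primed fall of the group, from 171 and 165 TPM to 100 and 104 (-0.72 ± 0.04, limma adjusted p = 4.46e-07), and Psmd3 the largest in DKO (-0.37).

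Assembly chaperones guide the subunits into place and leave the finished particle. Of these 7 genes, 2 were higher and 3 lower in GKO, 0 and 3 in DKO and 1 and 6 in primed cells. Over all genes tested the shares were 24.7% and 27.1%, 21.7% and 24.3%, and 37.4% and 42.5%. Psmd10 (gankyrin), which holds the base ATPases during assembly, went opposite ways in the GYS1 knockouts: it was 22.1 and 19.6 TPM in naïve, 20.1 and 20.3 in AKO, 30.9 and 30.1 in GKO, 15.7 and 14.6 in DKO and 17.9 and 18.6 in primed cells. GKO lay above every other library and DKO below every other. The changes were 0.53 ± 0.07 in GKO (limma adjusted p = 0.000211) and -0.43 ± 0.07 in DKO (limma adjusted p = 0.000787). On the distal X chromosome (chrX:139847687-139857477, GRCm39) its 50 nearest tested genes moved the same way, with medians of 0.47 in GKO and -0.19 in DKO.

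The Psmg genes, whose products pair up to build the alpha ring, were split. Psmg3 fell from 29.2 and 29.4 TPM to 22.6 and 22.8 in GKO (-0.35 ± 0.05, limma adjusted p = 0.000365) and 21.4 and 21.3 in DKO (-0.44 ± 0.05, limma adjusted p = 0.000153), where its neighbours on chromosome 5 had medians of -0.31 and -0.23. Psmg2 fell in GKO (-0.43), DKO (-0.33) and primed cells (-0.32). Psmg4 was higher in GKO (0.41, lost without the second naïve library and, at 0.23, without the second GKO library) and primed cells (0.87), reaching 22.5 and 23.6 TPM from 12.5 and 11.8. Psmd5, which binds the base before the lid joins, had the largest primed fall of the group, from 31.6 and 31.7 TPM to 17.5 and 16.6 (-0.86 ± 0.08, limma adjusted p = 1.15e-05).

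**Figure D3:**
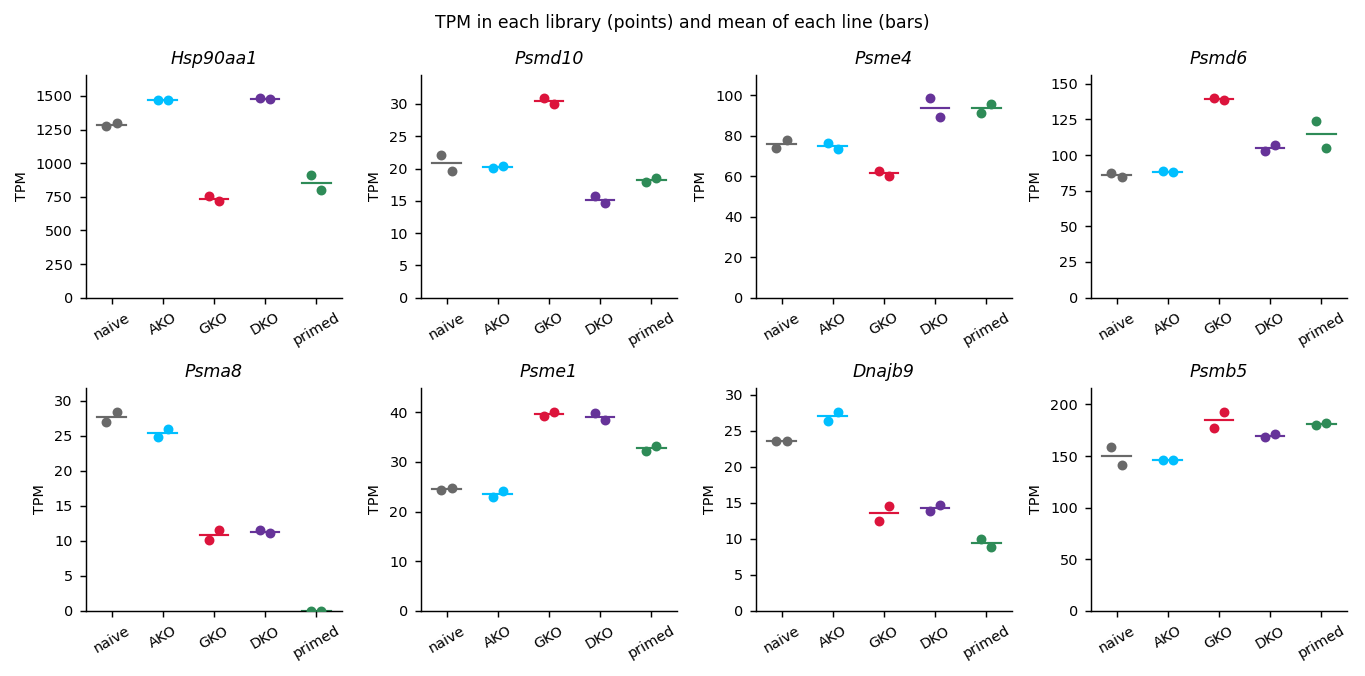
TPM of 8 genes in each library (points) with the mean of each line (bars), each vertical axis starting at 0. Hsp90aa1 and Psme4 are lowest in GKO among the lines kept as naïve cells, Psmd10 is high in GKO and low in DKO, and Psma8 is at 0 in primed cells.

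Activators open the core without the 19S particle, and Psmf1 (PI31) was named as its inhibitor. Psme1 and Psme2 encode PA28 alpha and beta, which join in a ring induced by interferon. Psme1 was 24.3 and 24.8 TPM in naïve, 22.8 and 24.2 in AKO, 39.3 and 40.1 in GKO, 39.8 and 38.4 in DKO and 32.2 and 33.2 in primed cells, so the GYS1 knockouts stood highest and did not overlap the rest. The changes were 0.67 ± 0.05 in GKO (limma adjusted p = 1.28e-05), 0.65 ± 0.05 in DKO (limma adjusted p = 1.97e-05) and 0.40 in primed cells. The neighbours of Psme1 on chromosome 14 had medians of 0.39, 0.34 and 0.43, and with the chromosome centred it read 0.19 in GKO and 0.27 in DKO, both still called, and -0.12 in primed cells. Psme2, which lies beside it on chromosome 14, read 18.4 and 17.8 in naïve, 14.7 and 14.5 in AKO, 26.9 and 28.6 in GKO and 21.7 and 24.2 in DKO, with AKO below and both GYS1 knockouts above naïve. Psme2 rose by 0.59 in GKO and by 0.33 in DKO (the latter lost without the second DKO library), while its AKO value of -0.29 was not called (limma adjusted p = 0.193). These stood against medians of 0.38 and 0.40 in GKO and DKO for its neighbours, and centring the chromosome left 0.11 and -0.05, not called. Psme2 has a near copy among these genes, Psme2b, and the split of reads between them is uncertain.

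Psme4 encodes PA200, a nuclear activator. It was 74.1 and 77.8 TPM in naïve, 76.5 and 73.5 in AKO, 62.8 and 60.4 in GKO, 98.5 and 89.3 in DKO and 91.3 and 96.0 in primed cells. The GYS1 knockouts lay on opposite sides of naïve, at -0.30 ± 0.06 in GKO (limma adjusted p = 0.00249) and 0.30 ± 0.06 in DKO (limma adjusted p = 0.00273), with neighbour medians on chromosome 11 of -0.09 and 0.04. In primed cells Psme4 rose by 0.30, where its neighbours rose by 0.42 and the centred value was -0.02. Psme3 (PA28 gamma), the nuclear homologue of Psme1, fell by 0.31 in GKO and 0.39 in DKO, from 166 and 169 TPM to 135 in both GKO libraries and 129 and 127 in DKO, and rose by 0.13 in primed cells (lost without the first naïve library, and -0.19 when centred on its chromosome). Psmf1 fell by 0.49 in GKO (limma adjusted p = 0.000238) and 0.46 in DKO (limma adjusted p = 0.00046), from 16.5 and 15.4 TPM to 11.3 and 10.8 and to 11.8 and 10.9.

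The interferon-induced beta subunits were nearly absent. Psmb8 reached at most 0.08 TPM and Psmb9 at most 0.85, and neither passed the filter. Psmb10, the third of them, was at 11.0 to 13.8 TPM in all 10 libraries and was called in no comparison.

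All 7 CCT genes were expressed between 252 and 478 TPM, a narrow range for subunits of 1 ring. Of these, 2 were higher and 2 lower in GKO, 1 and 3 in DKO and 2 and 4 in primed cells, with medians of 0.03, -0.04 and -0.16. Among all genes tested the shares were 24.7% and 27.1%, 21.7% and 24.3%, and 37.4% and 42.5%. The primed median was 0.04 with either quantile normalization or chromosome centring. Cct5 was 407 and 406 TPM in naïve, 416 in both AKO libraries, 365 and 375 in GKO, 339 and 337 in DKO and 370 and 357 in primed cells, below naïve in the last 3 lines. Its change was -0.26 ± 0.04 in DKO (limma adjusted p = 0.00093; -0.09 and not called when centred on chromosome 15), -0.14 in GKO (limma adjusted p = 0.0217, lost without either naïve or the first GKO library) and -0.16 in primed cells. Its neighbours had medians of -0.15, -0.17 and 0.05 in DKO, GKO and primed cells, and centring turned the GKO and primed values to 0.04 and 0.04, not called. Cct4 rose in all 3 lines (0.18 in GKO and 0.19 in DKO, both lost without the second naïve library, and 0.37 in primed cells, lost at 0.05 with the chromosome centred), and Cct8 had the largest primed fall, from 377 and 381 TPM to 294 and 271 (-0.42 ± 0.05, limma adjusted p = 3.21e-05). Tcp1, which encodes CCT1, was 409 and 399 TPM in naïve, 420 and 405 in GKO and 344 and 354 in DKO, with only the DKO libraries below the naïve ones (-0.21 ± 0.04, limma adjusted p = 0.00386).

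**Figure D4:**
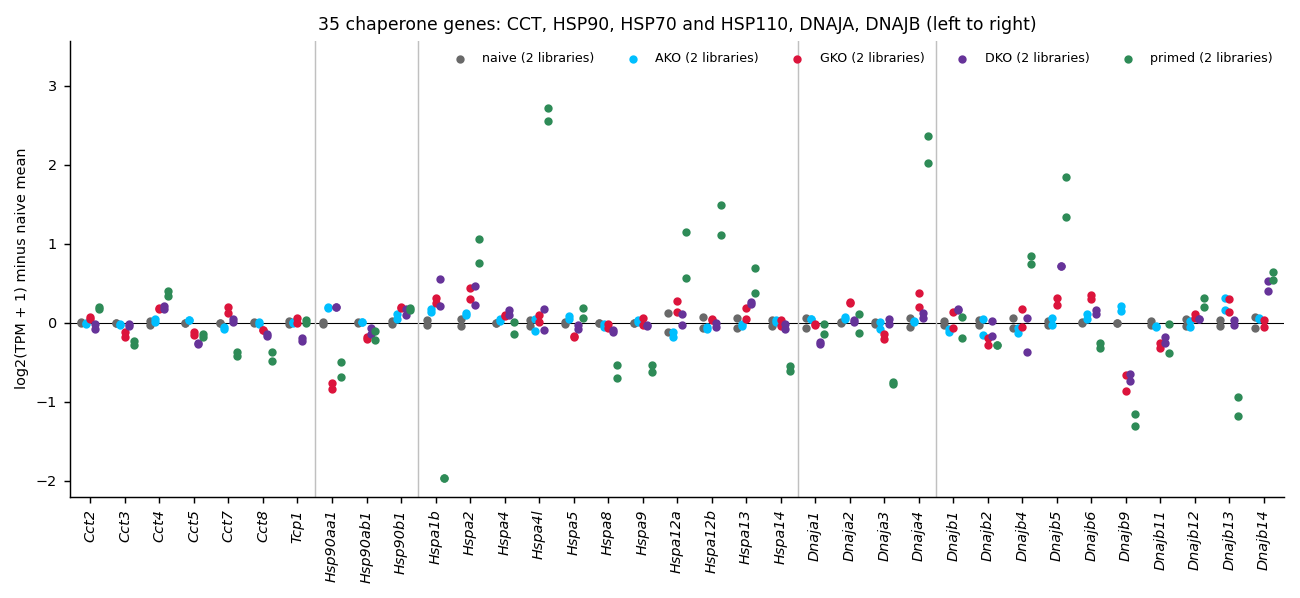
log2(TPM + 1) of 35 chaperone genes in each library (points, coloured by line) minus the mean of the 2 naïve libraries; vertical lines separate CCT, HSP90, HSP70 with HSP110, DNAJA and DNAJB. Hsp90aa1 is low in GKO and primed cells, Dnajb9 is low in GKO, DKO and primed cells, and Hspa4l and Dnaja4 are high in primed cells.

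HSP90 has an inducible cytosolic form (Hsp90aa1), a constitutive cytosolic form (Hsp90ab1) and a form in the endoplasmic reticulum (ER; Hsp90b1, also GRP94). Hsp90aa1 was among the most abundant of the 82 genes, at 1276 and 1298 TPM in naïve, 1469 and 1472 in AKO, 1482 and 1477 in DKO, 757 and 717 in GKO and 908 and 799 in primed cells. GKO was the lowest line, and AKO and DKO lay above naïve. The change was -0.80 ± 0.07 in GKO (limma adjusted p = 2.69e-05), 0.20 ± 0.07 in DKO (limma adjusted p = 0.0356, lost without any 1 of the naïve, AKO or DKO libraries), 0.19 in AKO, not called, and -0.59 in primed cells. Hsp90aa1 lies at the distal end of chromosome 12 (chr12:110656842-110669166, GRCm39), where its 50 nearest tested genes had medians of -0.55 in GKO, 0.16 in DKO, 0.13 in AKO and 0.31 in primed cells. The primed fall thus ran against the neighbours while the other 3 values had their sign. Hsp90ab1, the most abundant of all, was 2534 and 2518 TPM in naïve and 2222 and 2198 in GKO (-0.19 ± 0.06, limma adjusted p = 0.0298, lost without any 1 of the naïve, AKO or GKO libraries). Hsp90b1 was 223 and 229 in naïve, 258 and 260 in GKO, 256 and 242 in DKO and 259 and 253 in primed cells, all above naïve (0.20 ± 0.05 in GKO, limma adjusted p = 0.00626, lost without the first naïve library).

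In the ER, Hsp90b1 works beside the HSP70 protein BiP (Hspa5) and the DNAJ protein ERdj4 (Dnajb9), and the unfolded protein response is known to raise their genes. They did not move together. Hspa5 was 247 and 251 TPM in naïve, 257 and 265 in AKO, 220 and 222 in GKO, 244 and 235 in DKO and 284 and 259 in primed cells, lowest in GKO (-0.17 ± 0.05, limma adjusted p = 0.0212, lost without either naïve or either GKO library). Dnajb9 was 23.6 in both naïve libraries, 26.3 and 27.6 in AKO, 12.5 and 14.5 in GKO, 13.8 and 14.7 in DKO and 10.0 and 8.93 in primed cells, low in the last 3 lines without overlap. Its falls of 0.76 in GKO (limma adjusted p = 8.48e-05), 0.69 in DKO (limma adjusted p = 0.000183) and 1.23 in primed cells (limma adjusted p = 6.43e-07) exceeded neighbour medians of -0.10, -0.19 and 0.02 on chromosome 12.

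The promoters of these ER genes are shown because the unfolded protein response is known to raise the genes. They are given as the 250 bases before the annotated start (RefSeq, GRCm38.p6), 5′ to 3′ on the gene's strand. Capitals mark the ER stress element in Hspa5 and Hsp90b1, that is CCAAT and CCACG with 9 bases of any kind between them on either strand, and CACGTG in Dnajb9. They span chr2:34771840-34772089 on the plus strand, chr10:86705445-86705694 on the minus strand and chr12:44210069-44210318 on the minus strand.
Hspa5: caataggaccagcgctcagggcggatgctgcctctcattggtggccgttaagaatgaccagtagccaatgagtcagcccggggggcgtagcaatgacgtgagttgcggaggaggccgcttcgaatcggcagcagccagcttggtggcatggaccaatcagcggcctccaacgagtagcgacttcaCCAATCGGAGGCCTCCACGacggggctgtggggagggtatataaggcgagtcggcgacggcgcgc
Hsp90b1: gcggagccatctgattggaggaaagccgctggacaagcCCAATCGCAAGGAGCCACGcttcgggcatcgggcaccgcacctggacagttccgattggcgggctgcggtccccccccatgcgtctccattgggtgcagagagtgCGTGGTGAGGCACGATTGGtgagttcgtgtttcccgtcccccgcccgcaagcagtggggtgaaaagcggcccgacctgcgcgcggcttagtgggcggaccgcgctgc
Dnajb9: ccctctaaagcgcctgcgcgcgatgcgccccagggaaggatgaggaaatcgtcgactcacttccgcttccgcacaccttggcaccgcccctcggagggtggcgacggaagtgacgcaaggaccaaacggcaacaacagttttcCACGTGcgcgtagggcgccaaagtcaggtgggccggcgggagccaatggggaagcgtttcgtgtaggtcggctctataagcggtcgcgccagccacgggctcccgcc
The ER stress element was in 0.113% of the 32851 promoters of the table over these 250 bases. Among the 68 of the 82 genes with a promoter in the table, 2 held it, Hspa5 with 1 match that starts 65 bases before the start and Hsp90b1 with 2 matches, at 212 bases on the gene's own strand and 107 bases on the other. Hspa5 and Hsp90b1 read -0.17 and 0.20 in GKO, -0.05 and 0.14 in DKO, 0.07 and 0.08 in AKO, and 0.12 and 0.18 in primed cells. Of these, both AKO values and the DKO and primed values of Hspa5 were not called. Any part of the element in these values was not tested. CACGTG was in 6.02% of promoters and in those of 5 of the genes, Dnajb9, Psma4, Psmb10, Psmd9 and Psme3. Dnajb9 held no ER stress element in these bases, and whether the stress response reads its CACGTG was not tested. A match is a run of letters and was not tested for binding.

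HSP70 proteins are led by the constitutive Hspa8 in the cytosol and Hspa9 in mitochondria. In GKO and DKO Hspa8 was not called (-0.04 and -0.10), at 1477 and 1420 TPM in GKO and 1378 and 1401 in DKO against 1488 and 1495 in naïve. In primed cells both fell, Hspa8 to 1031 and 920 TPM (-0.61 ± 0.06, limma adjusted p = 1.82e-05) and Hspa9 from 366 in both naïve libraries to 254 and 238 (-0.58 ± 0.05, limma adjusted p = 3.8e-06). Hspa4l, an HSP110 relative, rose in primed cells from 0.53 and 0.61 to 8.21 and 9.32 TPM (2.63 ± 0.11 on the log2(TPM + 1) scale, limma adjusted p = 3.56e-08). Hspa2, known from the testis and brain, rose there from 1.93 and 1.76 to 3.81 and 4.94 (0.91 ± 0.12). Its GKO and DKO values of 0.37 and 0.34 lost the threshold without either naïve or either GKO library, and the DKO value also without either AKO or the second DKO library, the last at 0.22. The heat-inducible Hspa1b was 2.83 and 2.99 TPM in naïve and 3.51 and 4.74 in DKO (0.38, limma adjusted p = 0.0189, lost without either naïve library or the second DKO library, without which it was 0.21) and was listed at 0 in both primed libraries. Hspa1a, its near-identical copy, stayed under 1 TPM in every library, and how reads were split between them is uncertain.

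DNAJ proteins bring clients to HSP70. Dnaja1, a main cytosolic partner, was 116 and 126 TPM in naïve, 125 in both AKO libraries, 118 and 120 in GKO and 102 and 99.9 in DKO, lower in DKO alone of the knockouts (-0.26 ± 0.05, limma adjusted p = 0.00461). Dnajb1, the inducible partner, was 30.8 to 40.3 TPM over all libraries and was called in none of the comparisons with naïve cells. Dnaja3, which acts in mitochondria, fell in primed cells from 36.3 and 37.1 to 21.0 and 21.4 (-0.76 ± 0.05, limma adjusted p = 7.12e-07). Dnaja4 rose there from 0.43 and 0.33 to 4.58 and 6.07 TPM (2.19 ± 0.12, limma adjusted p = 1.96e-07). Dnajb5 was 2.70 and 2.81 TPM in naïve, 5.17 and 5.16 in DKO, 3.41 and 3.65 in GKO and 8.50 and 12.4 in primed cells, with rises of 0.72 ± 0.14 in DKO (limma adjusted p = 0.00289) and 1.59 ± 0.14 in primed cells (limma adjusted p = 5.06e-06); its GKO value of 0.27 was not called.

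Dnajb6, which keeps aggregation-prone proteins soluble, rose from 77.2 and 78.1 TPM to 99.4 and 96.0 in GKO (0.33 ± 0.05, limma adjusted p = 0.000423), was at 83.8 and 87.1 in DKO (0.14, lost without any 1 of the naïve, DKO or GKO libraries) and fell in primed cells to 64.8 and 61.9 (-0.29; -0.08 and not called when centred). Its promoter is shown because it was the only 1 of the 68 to hold a full heat shock element, here GAA, TTC and GAA with 2 bases of any kind between neighbours on either strand, found in 0.466% of all promoters. Genes with no promoter listed, Hsp90aa1 and Hspa8 among them, were not searched. The 250 bases before its first annotated start (chr5:29735648-29735897 on the plus strand, RefSeq, GRCm38.p6) carry the match in capitals, starting 46 bases before the start.
Dnajb6: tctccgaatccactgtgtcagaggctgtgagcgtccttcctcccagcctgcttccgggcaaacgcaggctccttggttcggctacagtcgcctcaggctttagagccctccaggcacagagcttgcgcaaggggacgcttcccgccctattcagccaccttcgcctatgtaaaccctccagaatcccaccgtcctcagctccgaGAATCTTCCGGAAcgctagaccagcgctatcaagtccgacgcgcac

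The GYS1 knockouts were also compared directly, GKO against DKO, which carried the AMPK knockout as well. In GKO against DKO 15 of the 82 genes were higher and 10 lower, where 21.2% of all genes tested were higher and 22.4% lower. Hsp90aa1 was the largest fall (-1.005 ± 0.07, limma adjusted p = 1.26e-05), followed by Psme4 (-0.60 ± 0.06, limma adjusted p = 7.94e-05), and Psmd10 was the largest rise (0.96 ± 0.07, limma adjusted p = 1.44e-05), followed by Psmd6 (0.40). The neighbours moved along at Hsp90aa1 (-0.67) and Psmd10 (0.65) and little at Psme4 (0.01) and Psmd6 (0.12). Of the 31 constitutive subunits 7 were higher and 3 lower. With 1 library left out at a time the counts ran from 6 to 18 higher and from 4 to 14 lower, the lowest being 6 higher without the first DKO library and 4 lower without the first GKO library.

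An interaction was also tested, the change from AKO to DKO minus the change from naïve to GKO. As the lines may differ in more than their genotype, it does not isolate a dependence of the GYS1 effect on AMPK. The interaction was above 0 for 4 genes and below 0 for 7, against 13.1% and 12.8% of all genes tested. Hsp90aa1 changed by 0.01 from AKO to DKO and by -0.80 from naïve to GKO (interaction 0.81 ± 0.09, limma adjusted p = 0.000576). Psme4 changed by 0.32 and -0.30 (0.62 ± 0.08, limma adjusted p = 0.00105) and Psmd10 by -0.39 and 0.53 (-0.92 ± 0.09, limma adjusted p = 0.000302). Psmd6 changed by 0.24 and 0.69 (-0.44 ± 0.10, limma adjusted p = 0.0121, lost without the second naïve library), and Psmc6, Psma3, Tcp1, Dnaja1 and Dnajb6 were also below 0, from -0.44 to -0.24. Dnaja3 (0.22) and Dnajb14 (0.42) were the other genes above 0. With 1 library left out at a time Psma3, Tcp1, Dnaja1, Dnaja3, Dnajb6 and Dnajb14 each lost the call in at least 5 of 10 refits. The interaction of the 50 neighbours was 0.56 at Hsp90aa1, -0.67 at Psmd10 and -0.01 at Psme4. With median-ratio scaling or chromosome centring the split was 3 above and 10 below 0, and with the first or second primed library left out it was 9 and 12.

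AKO against naïve was the smallest contrast. The 7 genes at an unadjusted p under 0.05 were Psma6, Psma3, Psmc1, Hsp90aa1 and Dnajb9, which were higher, and Psme2 and Psmg3, which were lower. The first 5 of these lie on chromosome 12, and all 6 of the 82 genes on that chromosome had values above 0 in AKO, from 0.11 to 0.34. The chromosome's 400 tested genes had a median of 0.16. Psmc1, an ATPase of the 19S base, read 119 and 118 TPM in naïve and 139 and 136 in AKO (0.21, limma adjusted p = 0.211).

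In GKO and DKO the change of the 82 genes went in part with that of their chromosomal neighbours. In AKO this held by Pearson r, while by rank and sign AKO was close to primed cells. In GKO the members' change correlated with the median of their 50 nearest tested genes at Pearson r = 0.63 (Spearman rho = 0.50), in DKO at 0.51 (0.48), in AKO at 0.62 (0.28), in GKO against DKO at 0.68 (0.40) and in primed cells at 0.06 (0.29); the points share libraries and overlapping neighbours, and the window was chosen after seeing the data. The sign was that of the neighbours' median for 51 of the 82 genes in GKO, 51 in DKO, 48 in AKO, 52 in GKO against DKO and 47 in primed cells. Taking off the neighbours' median moved the median absolute change from 0.24 to 0.17 in GKO, from 0.20 to 0.17 in DKO, from 0.12 to 0.11 in GKO against DKO and from 0.31 to 0.35 in primed cells. In AKO it went from 0.039 to 0.038. The same values were not computed over all genes tested, so they do not set these members apart. All 5 members on chromosome 14 (Psmb5, Psmc6, Psmd6, Psme1 and Psme2) were higher in GKO and in DKO, and with the chromosome centred Psme1, Psmd6 and, no longer called, Psme2 stayed above 0 in GKO. Genes that changed beyond their neighbours in both GYS1 knockouts included Psma8 (-1.26 and -1.15 relative to them), Dnajb9 (-0.67 and -0.50), Psmb3 (-0.51 and -0.35) and Psmf1 (-0.48 and -0.44), named after their values were seen.

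**Figure D5:**
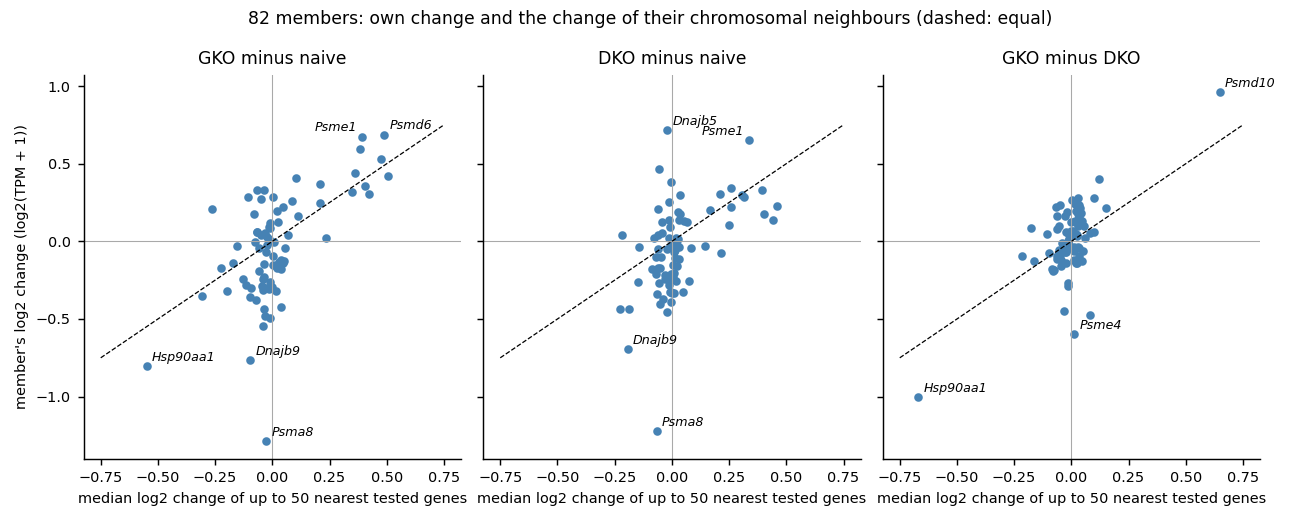
Log2 change of each of the 82 genes (vertical axis) against the median log2 change of up to 50 nearest tested genes on its chromosome (horizontal axis), for GKO and DKO against naïve and for GKO against DKO; the dashed line marks equal values. In GKO against DKO, Hsp90aa1 and Psmd10 lie far from 0 on both axes, on the side of their neighbours but beyond the line. Psma8 and Dnajb9 lie away from the line in GKO and DKO against naïve, and Psme4 most clearly in GKO against DKO.

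Other genes of the pathway, in lists that the symbol rule did not use, are given by their counts, to be read against the shares over all genes given for each comparison (in GKO 24.7% higher and 27.1% lower). Of 9 transcription factors for proteasome and heat shock genes, 2 were higher and 4 lower in GKO, 0 and 5 in DKO and 3 and 4 in primed cells; Hsf1, the heat shock factor, was lower in GKO (-0.50 ± 0.05, limma adjusted p = 9.89e-05) and DKO (-0.46 ± 0.05, limma adjusted p = 0.000205). Of 19 cochaperones and small heat shock proteins, 2 were higher and 11 lower in GKO, 1 and 10 in DKO and 2 and 15 in primed cells. Hspb1 (HSP27) was lower in GKO (-0.95 ± 0.08, limma adjusted p = 3.91e-05) and in primed cells (-4.28 ± 0.08), where Bag2, a cofactor of HSP70, was higher (3.01 ± 0.13). Of 16 ER stress genes, 1 was higher and 10 lower in GKO, 2 and 8 in DKO and 6 and 4 in primed cells, with Xbp1, a transcription factor of that response, at -1.16 ± 0.07 in GKO (limma adjusted p = 6.6e-06). Of 17 partners and shuttles of the proteasome, 5 were higher and 5 lower in GKO, 1 and 7 in DKO and 5 and 8 in primed cells. Of 9 prefoldin genes and CCT cofactors, 2 were higher and 5 lower in GKO, 0 and 2 in DKO and 1 and 5 in primed cells. Of 6 ubiquitin genes, 0 were higher and 2 lower in GKO, 0 and 2 in DKO and 2 and 1 in primed cells. Among these Uba1, the main ubiquitin-activating enzyme, fell in GKO (-0.69), DKO (-0.43) and primed cells (-1.20). Of 8 genes of MHC class I presentation, 5 were higher and 1 lower in GKO, 3 and 1 in DKO and 4 and 3 in primed cells. In AKO 0 genes of these lists were called by limma.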

How the data were processed

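RNA-seq of 10 libraries of mouse J1 embryonic stem cells, 2 from each of 5 lines, was used as deposited. The authors trimmed reads (Trim Galore), aligned them with STAR, quantified them with RSEM 1.3.3 and deposited TPM per protein-coding gene without replicate pooling. The methods name GRCm39 and another library kit than the labels, the submitters' processing notes GRCm38 and STAR 2.7.9a, and which applies was not settled. The listed TPM summed to 500162 to 578952 per library, since only protein-coding genes are listed, and read depth is unknown.

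The 12060 genes that reached 1 TPM in 2 or more libraries were fitted with limma 3.58.1 (R 4.3.3) on log2(TPM + 1), with 1 mean per line, an intensity trend, shared spread over all 10 libraries and Benjamini-Hochberg adjustment within each of 6 comparisons. The pseudocount of 1 understates changes of low genes. The fit was also run on simulated data with independent noise, few shifted genes and no shift of whole chromosomes. That run does not give the error rate in these data. With 2 libraries against 2, an exact permutation test cannot go below 0.333, so none was used. Genes were named by a rule: fixed catalytic and regulatory genes, plus the largest rise and fall of each role list past the threshold, provided that libraries did not overlap and the higher line averaged 5 TPM (3 each for GKO against DKO, the interaction and AKO). Changes given outside this rule were chosen after their values were seen. Members, lists and the rule were chosen with earlier results of these data known. Positions are from GENCODE M39 (GRCm39), found for all 82 genes and 96.1% of those tested. Pseudocount, filter, scaling, trend, fold minimum, replicate block and left-out libraries were varied.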

Additional observations from a re-analysis of the deposited data

Results flagged for a closer look

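For 11 of the 82 genes the change from AKO to DKO differed from that from naïve to GKO by the limma interaction test. It is given as the first change minus the second on the log2 scale, and was above 0 for 4 genes and below 0 for 7. Of all genes tested 13.1% were above and 12.8% below 0. These lines may differ in more than their genotype, so dependence of the GYS1 effect on AMPK cannot be told apart from other differences. The difference was -0.92 for Psmd10, -0.44 for Psmd6, -0.44 for Psma3, 0.81 for Hsp90aa1, 0.62 for Psme4 and 0.22 for Dnaja3, and -0.30 for Psmc6, -0.29 for Dnaja1, -0.27 for Dnajb6, -0.24 for Tcp1 and 0.42 for Dnajb14. Hsp90aa1, Psme4, Psmd10 and Psmc6 kept the call in every refit with 1 library left out, and Psmd6 in all but that without the second naïve library. Psma3 lost it without either naïve, either AKO, the first GKO or the second DKO library, and Dnaja3 and Dnajb14 without any 1 library of the 4 lines in the contrast. Tcp1 lost it without either naïve, either AKO, the first DKO or the first GKO library, Dnaja1 without the first naïve or any AKO, DKO or GKO library, and Dnajb6 without either naïve, the second AKO, the first DKO or the first GKO library. The neighbours of Psmd10 and Hsp90aa1 differed in the same direction, by -0.67 and 0.56, and those of Psme4 by -0.01; their part was not tested.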

How the results depend on the processing

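A TPM table gives no read depth, so counting error of low genes such as Hspa1b and Hspa2 is unknown, and 2 libraries a line leave small changes near the threshold unsettled. Asking for a change of at least 1 on the log2 scale left 0 higher and 1 lower in GKO, 0 and 1 in DKO, 4 and 4 in primed cells, 0 and 1 in GKO against DKO and 0 and 0 in the interaction. Quantile normalization gave 21 lower in GKO and 35 higher and 26 lower in primed cells, and turned Psmd11 (0.089), Hsp90ab1 (0.068), Cct5 (0.045) and the CCT median (0.045) positive in primed cells. A mean of 5 TPM left 15 higher in primed cells, since fewer genes were tested. Fitting only the libraries of the lines compared gave 9 above and 12 below 0 in the interaction. Centring each chromosome reversed Psmb5 (-0.18), Psmc6 (-0.065) and Cct5 (0.042) in GKO, Psmb5 (-0.20), Psmc6 (-0.24), Psme2 (-0.053) and Psmd6 (-0.10) in DKO, and in primed cells Psmb5 (-0.26), Psmb6 (-0.14), Psme1 (-0.12), Psme3 (-0.19), Psme4 (-0.021), Psmc6 (-0.24), Psmd6 (-0.12), Cct5 (0.039) and the CCT median (0.039). The causes were not tested.

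With 1 library left out at a time, the genes higher ranged from 8 to 21 in DKO (8 without the second naïve, 10 without the first naïve, 9 without the second DKO library), 0 to 1 in AKO (Psma6, without either primed library), 6 to 18 in GKO against DKO (8 without the second GKO library) and 2 to 9 in the interaction, and the genes lower from 4 to 14 in GKO against DKO (5 without the second DKO library) and 3 to 12 in the interaction. A lone library was assumed to vary like the other lines. Same-numbered libraries correlated at -0.13 to 0.08 in their deviations from the line means over 10 pairs of lines, so the numbers were not taken to pair them. With a replicate block 19 were higher and 29 lower in GKO, 14 and 28 in DKO, 0 and 0 in AKO, 24 and 41 in primed cells, 11 and 8 in GKO against DKO and 3 and 7 in the interaction. Changing the pseudocount to 0.1 changed no call of the 123 tracked changes of named genes, and median-ratio scaling cost 3 their call.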
